A study of Mus musculus with 2 samples.

Results

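The glucagon cells were 99 of the 1609 barcodes, out of 1635 deposited, that held at least 1000 UMIs (unique molecular identifiers, each standing for 1 captured RNA molecule) and at most 20% of UMIs from mitochondrial genes. A glucagon cell had at least 3 UMIs of Gcg, under 10 UMIs of Ins1 and Ins2 together, and under 15 UMIs of the acinar genes Cpa1, Ctrb1, Pnliprp1 and Clps together. They came from 2 libraries of wild-type mouse pancreas at E14.5, an embryonic stage, which the labels call islet cells, captured on the inDrop droplet platform after flow sorting for low and for high Ngn3eGFP, a green fluorescent reporter of Neurog3. Library 1 gave 37 glucagon cells among 528 barcodes and library 2 gave 62 among 1081. No other genotype or treatment was present, the sort decides which cells could appear, and the labels do not say whether each library was 1 embryo or a pool.

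Glucagon cells were compared with all other barcodes that passed the same filters and with 3 endocrine groups set by hormone UMIs. Insulin cells, 46 and 113 in libraries 1 and 2, had at least 10 UMIs of Ins1 and Ins2. Ghrelin/Pyy cells, 32 and 96, had no Gcg and at least 3 UMIs of Ghrl or 10 of Pyy. Chgb precursors, 71 and 115, had at least 3 UMIs of the granule gene Chgb and low counts of every islet hormone. The remaining 342 and 695 barcodes were given no class.

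Glucagon is the peptide hormone by which alpha cells raise blood glucose, cut from proglucagon in secretory granules by the convertase Pcsk2. Endocrine cells of the embryonic pancreas arise from epithelial progenitors that briefly express Neurog3, and glucagon cells are among the first to appear. Homeodomain factors direct these cells among the islet fates: Irx1, Irx2 and Pou3f4 mark the alpha fate, Pax4 acts in cells that take other fates, and Isl1 is shared with other islet cells.

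The 250 bases before the start of Gcg, Irx2 and Pyy are shown because these genes mark the cells and carry much of the description that follows. They come from RefSeq (GRCm38.p6), which held 8 of the 12 promoters looked up. Capitals mark TAAT or its reverse complement ATTA, the core that homeodomain factors such as Isl1 bind.
Gcg, chr2:62483654-62483903, minus strand: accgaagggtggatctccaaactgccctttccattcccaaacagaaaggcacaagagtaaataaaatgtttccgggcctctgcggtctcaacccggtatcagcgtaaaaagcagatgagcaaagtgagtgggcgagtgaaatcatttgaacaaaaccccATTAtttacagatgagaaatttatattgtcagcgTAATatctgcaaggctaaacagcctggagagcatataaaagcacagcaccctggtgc
Irx2, chr13:72628570-72628819, plus strand: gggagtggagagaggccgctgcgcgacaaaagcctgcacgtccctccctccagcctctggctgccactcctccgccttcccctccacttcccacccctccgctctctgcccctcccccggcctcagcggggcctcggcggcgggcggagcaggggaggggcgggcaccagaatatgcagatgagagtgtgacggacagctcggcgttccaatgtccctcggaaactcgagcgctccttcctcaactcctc
Pyy, chr11:102107833-102108082, minus strand: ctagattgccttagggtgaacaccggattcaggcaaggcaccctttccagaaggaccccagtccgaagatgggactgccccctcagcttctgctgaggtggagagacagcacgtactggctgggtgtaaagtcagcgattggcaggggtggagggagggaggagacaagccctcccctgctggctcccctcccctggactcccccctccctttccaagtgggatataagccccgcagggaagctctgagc
The Gcg promoter held 2 such matches, 91 and 57 bases upstream of the start, and 2 matches to TATAAA on either strand, 72 and 24 bases upstream, none of them overlapping. Irx2 and Pyy held no match to either. Among 32851 RefSeq promoters of this length, 54.9% held TAAT and 12.4% held TATAAA on either strand. A match is a run of letters and no measured site.

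Gcg lies at chr2:62474530-62483650 on the minus strand (GENCODE M21, GRCm38). Its UMIs per glucagon cell ran from 3 to 279 with a median of 25 in library 1, and from 3 to 405 with a median of 23.5 in library 2. The 2 libraries therefore overlapped over nearly the whole range, while the cells within each library spread widely. As a share of the cell's UMIs, Gcg had a median of 0.727% in library 1 and 0.915% in library 2, with highest values of 4.59% and 7.14%. The 5 richest cells held 43.9% of the Gcg UMIs of the glucagon cells in library 1 and 34.1% in library 2. Glucagon cells together held 92.6% and 95.9% of all Gcg UMIs in the passing barcodes of libraries 1 and 2. These values restate the rule and were not tested.

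Glucagon cells made up 7.01% of the barcodes in library 1 (exact binomial 95% interval 4.98 to 9.53%) and 5.74% in library 2 (4.43 to 7.29%), intervals that cover counting error only. Near the threshold, 7 and 4 glucagon cells of libraries 1 and 2 had 3 or 4 Gcg UMIs, while 15 and 9 barcodes that met the other conditions had 2. The 7 cells just inside the threshold in library 1 held Neurog3 at 1094 CPM (each gene's UMIs scaled by the group's total, in units of 1e6 UMIs), Spp1 at 1028 CPM, Pyy at 1293 CPM and Ghrl at 663 CPM. The 4 such cells of library 2 held Neurog3 at 518 CPM (6 UMIs), Spp1 at 345 CPM (4 UMIs), Pyy at 8025 CPM and Ghrl at 6817 CPM, so the libraries differed there. In glucagon cells with 5 or more Gcg UMIs, Neurog3 was at 137 and 64.6 CPM, Spp1, a gene of trunk and duct cells, at 68.6 and 70.4 CPM, and Pyy at 7473 and 7983 CPM in libraries 1 and 2. Barcodes with 2 Gcg UMIs had Pyy at 2366 and 3310 CPM. A further 2 barcodes, 1 per library, met every condition but the insulin limit, with 19 Gcg and 73 insulin UMIs in library 1 and 6 Gcg and 13 insulin UMIs in library 2. In library 2, 2 barcodes with 3 Gcg UMIs each were left out for acinar UMIs.

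Depth was close to that of the other cells. Glucagon cells had a median of 3757 UMIs in library 1 and 2717 in library 2, against 3240 and 2869 in all other barcodes. Their summed UMIs came to 146709 and 181946. A doublet caller marked 2.27% and 1.11% of the barcodes of libraries 1 and 2, with 2 glucagon cells among them in each library. The libraries shared 3 barcode sequences, 1 of which was a glucagon cell in library 2 and none in library 1. Free RNA was gauged in barcodes with at least 5 UMIs of 13 macrophage genes, 11 in library 1 and 69 in library 2. Of these, 4 of 11 and 18 of 69 held a Gcg UMI. In library 2, 6 of the 18 held 15 to 23 Gcg UMIs and counted as glucagon cells by the rule, and all the others in both libraries held 1 or 2.

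The label was checked against alpha-lineage transcription factors that the rule did not use. At least 1 UMI of Irx1 or Irx2 was present in 48.6% of glucagon cells of library 1 and 66.1% of library 2. Irx1 was detected in 40.5% and 40.3% of glucagon cells, against 0 of 11 and 2.90% of the macrophage-marker barcodes, at median depths of 3757 and 2717 UMIs against 2893 and 2870. With each cell thinned to 1000 UMIs the share with Irx1 was 18.9% and 16.1%. Irx2 was detected in 27.0% and 50% of glucagon cells, against 0 of 11 and 4.35% of macrophage-marker barcodes, and in 10.8% and 30.6% of glucagon cells after thinning. With so few UMIs of these genes per cell, a cell without a UMI cannot be read as one that lacks the gene.

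Summed over cells, all 7 alpha-lineage factors listed were higher in glucagon cells than in all other barcodes, where 0.734% of the 14170 genes tested were called higher (edgeR quasi-likelihood test on summed counts with library as a block, adjusted p below 0.05). Irx1, an Iroquois homeodomain factor at chr13:71957921-71963723, stood at 273 and 258 CPM in glucagon cells of libraries 1 and 2, against 12.6 and 17.8 CPM in all other barcodes, so that the fitted log2 ratio was 4.10 ± 0.32 (SE), with an edgeR adjusted p = 1.08e-06. Irx2, from the same cluster, stood at 157 and 330 CPM against 25.8 and 26.5 CPM (3.21 ± 0.33). For each of these genes both libraries of glucagon cells lay above both of the others. DESeq2 called 6 of the 7, leaving out Pou3f4 (adjusted p = 0.0681).

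The same factors separated the endocrine groups to different extents. In insulin cells, Irx1 was at 4.996 and 7.48 CPM, and 6 of the 7 factors were higher in glucagon cells. In ghrelin/Pyy cells, Irx2 was at 143 and 145 CPM, and the log2 fold change was 0.81 ± 0.35 (edgeR adjusted p = 0.603). Irx1 alone of the 7 was higher in glucagon cells than in ghrelin/Pyy cells, where it stood at 67.4 and 74.1 CPM (1.94 ± 0.37, edgeR adjusted p = 0.0102), a call that DESeq2 missed narrowly with an adjusted p of 0.0508. In Chgb precursors, Irx1 was at 17.4 and 24.0 CPM and Irx2 at 26.1 and 14.99 CPM, and 4 of the 7 factors, Irx1, Irx2 and Isl1 among them, were higher in glucagon cells. Pou3f4, a POU-homeodomain factor, was at 95.4 and 154 CPM in glucagon cells, 0 and 7.48 CPM in insulin cells, 160 and 80.6 CPM in ghrelin/Pyy cells and 87.0 and 111 CPM in Chgb precursors.

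**Figure D1:**
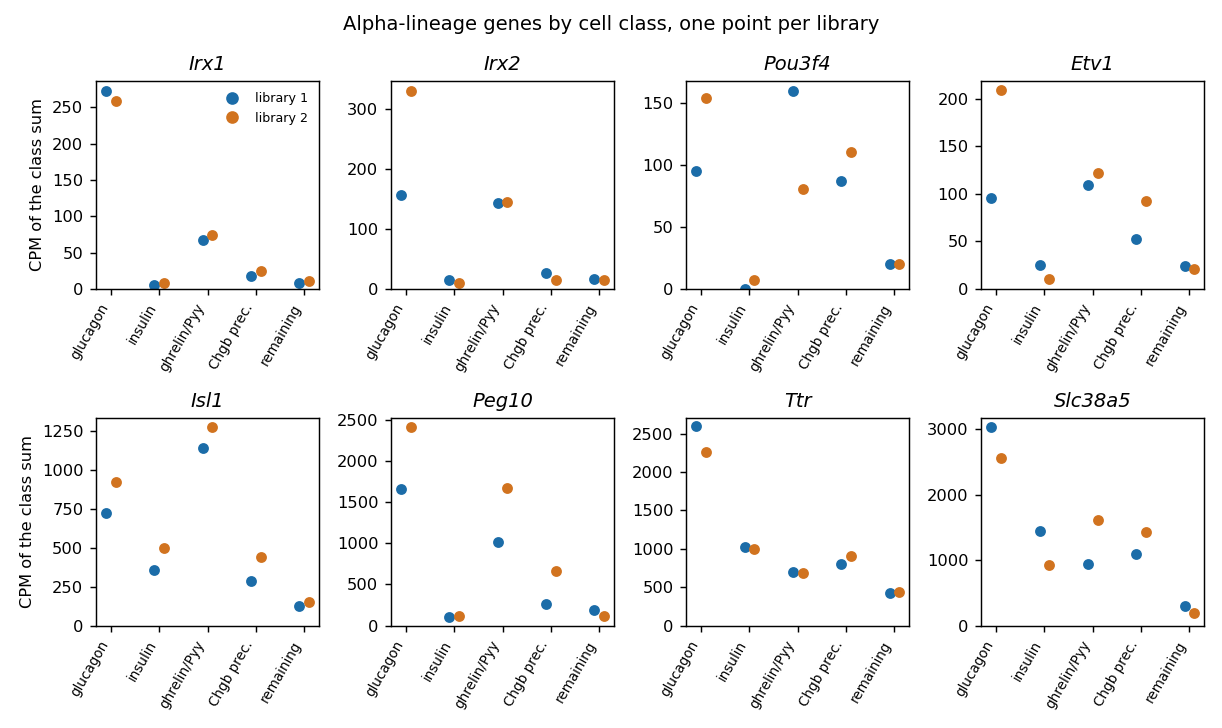
CPM (vertical axes, from 0) of 8 genes in the summed cells of 5 groups, with glucagon cells at the left and 1 point per library. Irx1 and Ttr are highest in glucagon cells in both libraries, while Pou3f4 and Isl1 overlap with or lie below the ghrelin/Pyy cells.

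Most glucagon cells carried RNA of another hormone, with at least 3 UMIs of Ghrl, Ppy or Pyy in 78.4% of library 1 and 90.3% of library 2. Gcg exceeded each of Ghrl, Ppy, Pyy and Sst in 67.6% and 66.1% of glucagon cells. Pyy exceeded Gcg in 29.7% and 29.0%, and Ghrl exceeded Gcg in 8.11% and 6.45%. Pyy, the gut and islet peptide YY, had at least 3 UMIs in 75.7% of glucagon cells of library 1 and 88.7% of library 2. Its sum stood at 6203 and 7986 CPM in glucagon cells, against 960 and 1376 CPM in all other barcodes (log2 fold change 2.61 ± 0.15, edgeR adjusted p = 1.84e-08). A Pyy UMI was found in 91.9% and 96.8% of glucagon cells, against 18.2% and 29.0% of macrophage-marker barcodes, which in library 2 include the 6 glucagon cells. After thinning to 1000 UMIs, 78.4% and 87.1% of glucagon cells still held Pyy.

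Ghrl, the ghrelin gene, had at least 3 UMIs in a smaller set, 18.9% of glucagon cells in library 1 (7 cells) and 25.8% in library 2 (16 cells). The highest cell held 69 UMIs in library 1 and 60 in library 2, and the median cell held none. The sum was 1336 and 1088 CPM in glucagon cells and 307 and 304 CPM in all other barcodes (1.98 ± 0.16, edgeR adjusted p = 1.74e-06). Exons of Ghrl overlap genes on the opposite strand, and the use of strand in the counting is not given in the sources used here. Ppy, pancreatic polypeptide, had at least 3 UMIs in 13.5% and 14.52% of glucagon cells and was at 252 and 583 CPM, against 91.7 and 111 CPM in all other barcodes (2.00 ± 0.25). Gast, gastrin, was at 245 and 330 CPM against 97.5 and 64.9 CPM (1.88 ± 0.27).

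Sst, somatostatin, went the other way. It was at 27.3 and 148 CPM in glucagon cells and 287 and 1175 CPM in all other barcodes (log2 fold change -3.07 ± 0.25, edgeR adjusted p = 1.30e-06). No glucagon cell of library 1 and 1 of library 2 had 3 or more Sst UMIs. That cell, with 3 Gcg UMIs, held 20 of the 27 Sst UMIs, and Sst was at 38.9 CPM in glucagon cells of library 2 without it. The count of 0 among 37 cells allows a share of up to 9.49% (exact binomial bound). Iapp, amylin, differed between the libraries of glucagon cells, at 470 CPM in library 1 and 2341 CPM in library 2, against 492 and 885 CPM in all other barcodes, and did not pass (edgeR adjusted p = 0.162). Ins1, limited by the rule, had a UMI in 27.0% and 19.4% of glucagon cells and in 18.2% and 8.70% of macrophage-marker barcodes.

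**Figure D2:**
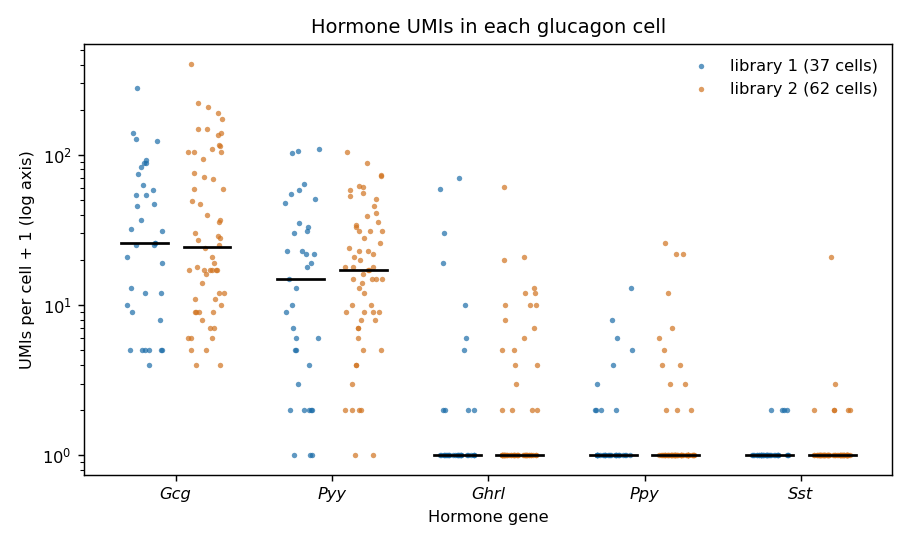
UMIs per cell plus 1 (log axis) of 5 hormone genes in each glucagon cell, 37 cells in library 1 and 62 in library 2, with black lines at the medians. Gcg runs from 3 UMIs to 279 in library 1 and 405 in library 2, and Pyy from 0 to 108 and 104, while the median cell has no Ghrl, Ppy or Sst.

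The 23 glucagon cells with 3 or more Ghrl UMIs were set beside the 76 with fewer, as values without a test because cells of a library are not replicates and the genes given were picked after their values were seen. Intervals in this and the next paragraph are exact Poisson 95% intervals for counting error, and they leave out the spread between cells. Gcg was at 10986 and 7034 CPM in the Ghrl cells of libraries 1 and 2, against 11912 and 23043 CPM in the cells with fewer Ghrl UMIs. Chgb, chromogranin B, was at 181 (58.7 to 422) and 139 (51.1 to 303) CPM in the Ghrl cells, against 781 (631 to 957) and 915 (762 to 1088) CPM. Both libraries thus had less Chgb in the Ghrl cells, with intervals apart. Chgb was uneven between cells, and in library 2 a single cell without Ghrl held 43 Chgb UMIs. Runx1t1, a transcriptional corepressor, was at 614 (358 to 984) and 557 (357 to 829) CPM in the Ghrl cells, against 160 (96.1 to 249) and 238 (164 to 334) CPM. Scg2, secretogranin II, was at 361 (173 to 665) and 604 (394 to 884) CPM against 118 (64.3 to 197) and 158 (99.3 to 240) CPM, with intervals that overlap narrowly in library 1.

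Along the other axis, glucagon cells whose Gcg share lay above their library's median (18 and 31 cells) were set beside those at or below it (19 and 31). Ttr, transthyretin, was at 3726 (3289 to 4205) and 2856 (2523 to 3221) CPM in the Gcg-rich cells, against 1550 (1283 to 1856) and 1621 (1367 to 1909) CPM in the others. Pcsk2 was at 1502 (1230 to 1816) and 2308 (2010 to 2639) CPM, against 867 (671 to 1103) and 1295 (1069 to 1554) CPM. Sphkap, an anchoring protein for protein kinase A, was at 411 (275 to 590) and 601 (454 to 781) CPM, against 105 (45.4 to 207) and 270 (173 to 402) CPM. In each of these 3 genes both libraries had higher values in the Gcg-rich cells, with intervals apart for counting error alone. This split was not tested either, and its genes too were picked after their values were seen. Gcg also sets the rule, so the cells with 3 or 4 Gcg UMIs all lay at or below the median. Sox4, a factor of endocrine progenitors, was at 42.5 (8.77 to 124) and 75.2 (30.2 to 155) CPM in the Gcg-rich cells, against 447 (309 to 624) and 259 (164 to 389) CPM. Neurog3 was at 99.2 (39.9 to 204) and 53.7 (17.4 to 125) CPM against 552 (398 to 746) and 135 (69.8 to 236) CPM, apart in library 1 but not in library 2. Irx1 was at 340 and 247 CPM in the Gcg-rich cells and 210 and 270 CPM in the others, so it did not follow Gcg in both libraries.

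**Figure D3:**
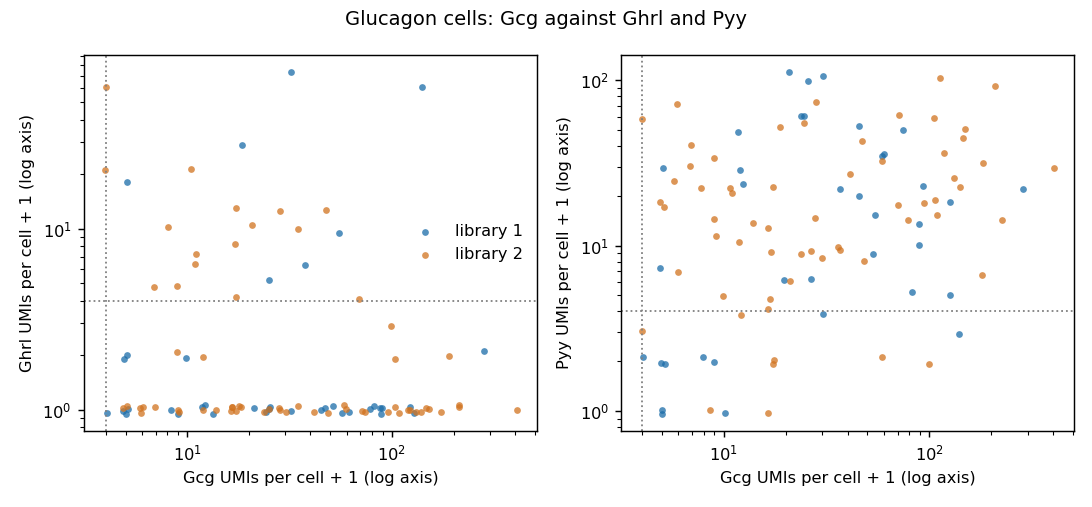
UMIs per glucagon cell plus 1 on log axes, Gcg on the horizontal axis and Ghrl (left) or Pyy (right) on the vertical axis, with a small random offset to separate points and dotted lines at 3 UMIs. Ghrl reaches 3 UMIs in 7 cells of library 1 and 16 of library 2, and Pyy does so in 28 and 55. Of the cells with 3 or 4 Gcg UMIs, 2 of 7 in library 1 and 3 of 4 in library 2 reach 3 Pyy UMIs.

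Over all genes, 203 of 14170 tested (1.43%) differed between glucagon cells and all other barcodes, 104 higher and 99 lower (0.699%) in glucagon cells. With glucagon cells limited to those with 5 or more Gcg UMIs, 452 genes were called, 201 of the 203 among them, and DESeq2 called 105. Beyond the transcription factors, 8 of 13 tested genes of the alpha-cell function list were higher and none lower, with a list median log2 fold change of 2.08 against -0.04 over all genes. Ttr stood at 2597 and 2253 CPM in glucagon cells, against 562 and 582 CPM in all other barcodes (2.08 ± 0.15). Slc38a5, a glutamine transporter, stood at 3033 and 2561 CPM against 576 and 556 CPM (2.30 ± 0.15), and Slc7a2, which carries arginine and lysine, at 327 and 412 CPM against 78.5 and 93.2 CPM (2.11 ± 0.23). Tmem27, collectrin, a membrane protein of endocrine cells, stood at 797 and 1264 CPM against 103 and 119 CPM (3.20 ± 0.19). Peg10, an imprinted gene derived from a retroelement, stood at 1656 and 2407 CPM against 244 and 323 CPM (2.84 ± 0.16, edgeR adjusted p = 1.84e-08). Glucagon cells were higher in both libraries for each of them. Of these genes only Ttr and Slc38a5 were also called higher against ghrelin/Pyy cells. Gc, the vitamin D binding protein that marks adult alpha cells, had no UMI in glucagon cells of library 1 and 1 in library 2.

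Genes of hormone processing and release were raised in part against all other barcodes. Of 15 granule genes, none passed in either direction against ghrelin/Pyy cells. Only 0.185% of all genes passed there, so this count cannot show a lack of difference. Against insulin cells 1 of the 15, Pam, was higher and 3 were lower, where 1.22% of all genes were higher and 1.77% lower. The sum of the 15 granule genes was 5548 and 7656 CPM in glucagon cells, 5802 and 7778 CPM in ghrelin/Pyy cells and 8569 and 9492 CPM in insulin cells. Of the 15 tested against all other barcodes, 7 were higher and 1 lower, where 0.734% of all genes were higher and 0.699% lower. Pcsk2 stood at 1172 and 1814 CPM in glucagon cells against 545 and 704 CPM in all other barcodes (1.24 ± 0.15), and Cpe, carboxypeptidase E, at 988 and 1275 CPM against 356 and 398 CPM (1.58 ± 0.16). Pam, which amidates peptides such as Pyy, stood at 586 and 802 CPM against 217 and 254 CPM (1.55 ± 0.18). Chgb was the 1 granule gene that was lower, at 668 and 731 CPM against 1311 and 1088 CPM (-0.77 ± 0.17, edgeR adjusted p = 0.0233), and DESeq2 did not call it (adjusted p = 0.0886). Among 13 genes of amino acid transport and use, 3 were higher and none lower, including Slc16a10, an aromatic amino acid transporter, and Glud1, glutamate dehydrogenase. Slc16a10 stood at 211 and 247 CPM against 46.4 and 46.5 CPM (2.31 ± 0.28). Gnas, the stimulatory G protein subunit, was higher at 7116 and 7810 CPM against 3394 and 3356 CPM (1.14 ± 0.14), with opposite-strand overlap. None of 16 exocytosis genes passed in edgeR or in DESeq2, too few genes to show a lack of difference where edgeR called 1.43% of all genes. At unadjusted p below 0.05, 3 were higher and 0 lower, beside 674 higher and 829 lower of all 14170 genes. The median log2 fold change of the exocytosis list was 0.38 against -0.04 over all genes, with 11 of the 16 positive.

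Some genes of earlier and neighbouring states were lower in glucagon cells, fewer of them in DESeq2 than in edgeR. DESeq2 called 4 of 14 endocrine progenitor genes and 1 of 16 trunk and duct genes lower. It also called 2 of 24 cell-cycle, 3 of 11 immediate-early and 2 of 16 beta genes lower. Over all 14170 genes DESeq2 called 38 lower. In edgeR, which called 0.699% of all genes lower, 6 of 14 endocrine progenitor genes were lower and none higher. Neurog3 stood at 334 and 93.4 CPM in glucagon cells against 727 and 639 CPM in all other barcodes (-1.79 ± 0.28, edgeR adjusted p = 0.00149), the higher value of library 1 lying in the cells with 3 or 4 Gcg UMIs described above. Pax4 had 1 and 2 UMIs in glucagon cells (-3.13 ± 0.61). Of 16 trunk and duct genes, 4 were lower, among them Spp1 at 266 and 87.9 CPM against 865 and 1125 CPM (-2.55 ± 0.30), although DESeq2 gave Spp1 an adjusted p of 0.121. Of 24 cell-cycle genes, 3 were lower and none higher, and 15 were lower at unadjusted p below 0.05. Over all 14170 genes, 829 were lower and 674 higher at that unadjusted cutoff. Among 11 immediate-early genes tested 5 were lower, with Jun at 130 and 137 CPM against 335 and 494 CPM (-1.63 ± 0.24). Nnat, neuronatin, a gene of insulin cells, stood at 245 and 187 CPM against 710 and 757 CPM (-1.78 ± 0.21), and Pdx1, Nkx6-1, Slc2a2 and Sytl4 were also lower. DESeq2 called Nnat and Nkx6-1 among these 5. Ucn3, a peptide of mature beta cells, was the 1 member of the beta list that was higher, at 61.3 and 16.5 CPM against 4.01 and 3.74 CPM (3.14 ± 0.58). It rests on 9 and 3 UMIs in glucagon cells against 7 and 12. DESeq2 called no beta gene higher, but it gave Ucn3 no adjusted p (log2 fold change 3.11 ± 1.11).

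Outside the lists, the 6 largest rises among called genes with at least 50 CPM were Lmtk3, Asb4, Sdhc, Hoxd3, Rgs4 and Edn3. Lmtk3, a kinase gene at chr7:45783738-45804144 whose exons overlap Sult2b1 on the other strand, stood at 607 and 308 CPM in glucagon cells, against 36.1 and 9.67 CPM in all other barcodes (log2 fold change 4.46 ± 0.28, edgeR adjusted p = 5.25e-08). It had a UMI in 78.4% of glucagon cells of library 1, against 11.2% of other barcodes, and in 41.9% against 2.85% in library 2. Sdhc, a subunit of mitochondrial complex II at chr1:171127165-171150603, stood at 818 and 1182 CPM against 105 and 120 CPM (3.14 ± 0.18, edgeR adjusted p = 2.16e-08). The other subunits, looked up after that value was seen, did not pass. Sdha was at 130 and 231 CPM in glucagon cells against 166 and 123 CPM (0.36 ± 0.29), Sdhb at 40.9 and 93.4 CPM against 57.3 and 63.9 CPM (0.17 ± 0.40), and Sdhd at 40.9 and 87.9 CPM against 87.7 and 94.2 CPM (-0.47 ± 0.37). Hoxd3, a homeobox gene, stood at 429 and 368 CPM against 45.3 and 64.5 CPM (2.85 ± 0.25), and its exons overlap Hoxd4 on the same strand and Haglr on the other, so these reads are uncertain in origin. Edn3, endothelin 3, stood at 102 and 104 CPM against 20.6 and 11.2 CPM (2.77 ± 0.48). Rgs4, a regulator of G protein signalling, stood at 34.1 and 198 CPM against 16.1 and 15.3 CPM (2.82 ± 0.56). Its place rests on library 2, where it had 36 UMIs in glucagon cells and a log2 fold of 3.61, against 5 UMIs and 1.04 in library 1. Large falls were in genes nearly undetected in glucagon cells, such as Fgfr3, a growth factor receptor, with 1 and 2 UMIs against 133 and 272.

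Against insulin cells, 259 of 8663 genes (2.99%) differed, 106 higher (1.22%) and 153 lower (1.77%) in glucagon cells. The rule keeps insulin UMIs low in one group and high in the other, so genes that follow insulin are not independent of the choice of cells. Ghrl stood at 1336 and 1088 CPM in glucagon cells against 29.98 and 14.95 CPM in insulin cells (5.80 ± 0.27), and Pyy at 6203 and 7986 CPM against 854 and 805 CPM (3.05 ± 0.14, edgeR adjusted p = 8.04e-17). Of 11 alpha-cell function genes, 7 were higher, led by Peg10 at 1656 and 2407 CPM against 105 and 117 CPM (4.17 ± 0.30). Ttr, at 1024 and 994 CPM in insulin cells, differed less (1.22 ± 0.15). Glud1 was higher at 907 and 1066 CPM against 240 and 304 CPM (1.81 ± 0.19).

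Of 15 beta genes tested, 10 were lower in glucagon cells and none higher. Nnat stood at 245 and 187 CPM in glucagon cells against 4462 and 4610 CPM in insulin cells (log2 fold change -4.44 ± 0.26, edgeR adjusted p = 6.15e-14). Sytl4, granuphilin, which docks insulin granules, stood at 13.6 and 27.5 CPM against 530 and 543 CPM (-4.68 ± 0.40). The transcription factors Pdx1 and Nkx6-1 were lower by 3.09 ± 0.32 and 2.81 ± 0.31 on the log2 scale. Slc2a2, the glucose transporter of beta cells, was at 27.3 and 27.5 CPM against 425 and 354 CPM. Defb9, a defensin gene, had 0 UMIs in glucagon cells against 86 and 88 in insulin cells. Taking 3 UMIs over both libraries as the limit that a count of 0 allows, it was at least 31.7-fold lower in glucagon cells. Iapp, at 470 and 2341 CPM against 2963 and 4787 CPM (-1.72 ± 0.30), passed in edgeR and not in DESeq2, whose adjusted p was 0.290.

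Genes of the endoplasmic reticulum were lower in glucagon cells than in insulin cells. Of 28 genes of protein folding and translocation, 16 were lower in glucagon cells and none higher, with a median log2 fold change of -1.32 against 0.01 over all genes, and DESeq2 called 13 lower. Hspa5, the chaperone BiP, stood at 477 and 989 CPM in glucagon cells against 2258 and 2709 CPM in insulin cells (-1.81 ± 0.20). Calr, calreticulin, stood at 1002 and 1033 CPM against 2853 and 2734 CPM (-1.50 ± 0.15), and Sdf2l1, a partner of BiP, at 54.5 and 49.5 CPM against 415 and 416 CPM (-3.04 ± 0.35). Atp2a2, the calcium pump of the same membrane, was lower by 1.93 ± 0.19. None of these genes passed against all other barcodes in edgeR or DESeq2. At unadjusted p below 0.05, 1 of 29 was higher there and 4 lower, beside 674 higher and 829 lower of all 14170 genes. Chgb, Chga and Scgn, the calcium sensor secretagogin, were lower in glucagon than in insulin cells, and Pam was higher (1.22 ± 0.21). Of 12 mitochondrially encoded genes 7 were called higher in glucagon cells by edgeR and 1 by DESeq2. Their median fold change was 0.40 on the log2 scale, and the median mitochondrial share per cell was 4.17% and 3.70% in glucagon cells against 2.99% and 2.85% in insulin cells. Whether RNA quality plays a part in that difference was not tested.

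**Figure D4:**
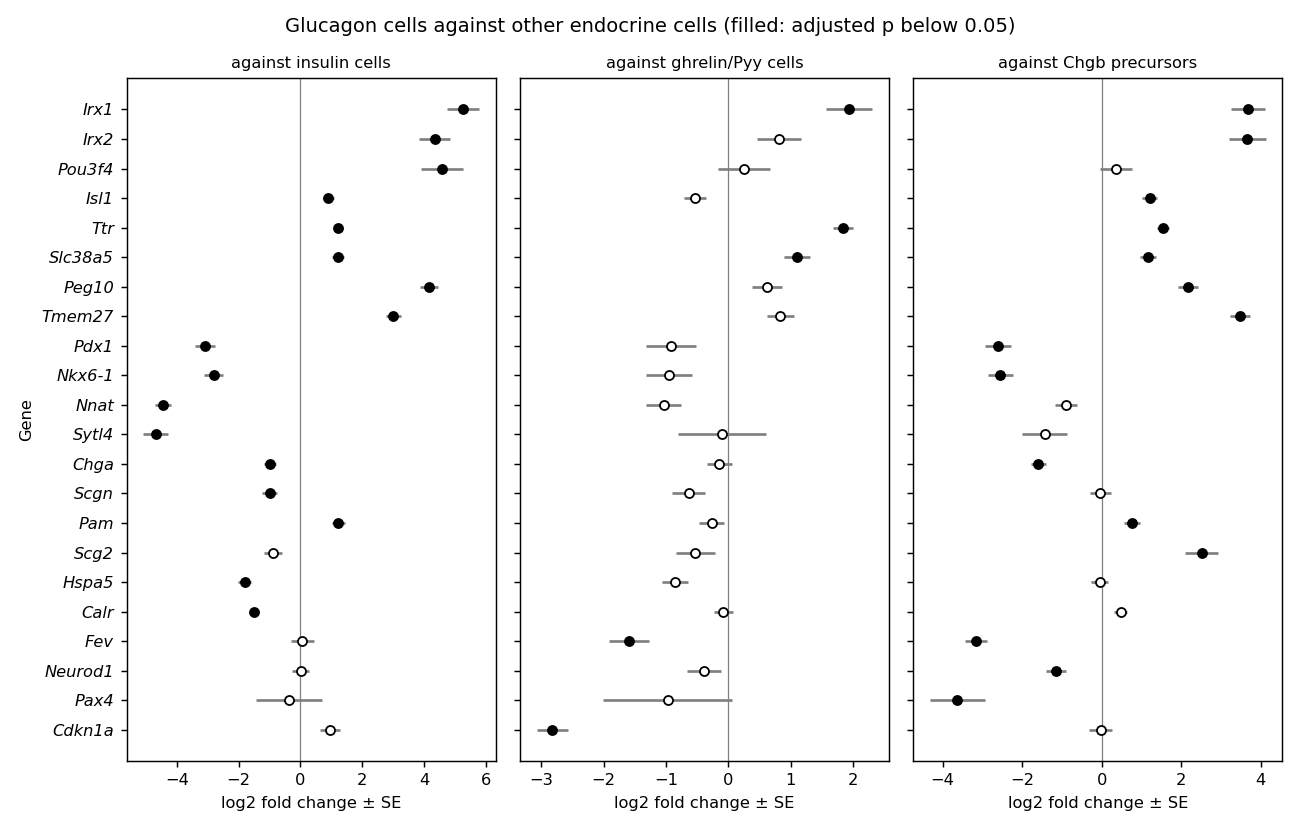
Log2 fold change with its SE (horizontal axes, scales differ between panels) of 22 genes in glucagon cells against insulin cells, ghrelin/Pyy cells and Chgb precursors, with filled points where the edgeR adjusted p was below 0.05. Irx1, Ttr and Slc38a5 are filled and positive in all 3 panels, and Pdx1 and Nkx6-1 are filled and negative against insulin cells and Chgb precursors.

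Against ghrelin/Pyy cells, 16 of 8661 genes (0.185%) differed, 7 higher (0.0808%) and 9 lower (0.104%) in glucagon cells. Groups differ in size, so counts of calls do not rank their likeness to glucagon cells. At unadjusted p below 0.05, 324 genes were higher and 325 lower. That group was not the same in both libraries, since 18 of its cells in library 2 and none in library 1 had 10 or more Sst UMIs. With those cells left out, 14 genes were called, 13 of them shared with the 16. With glucagon cells limited to those with 5 or more Gcg UMIs, 14 genes were called, 10 higher and 4 lower, and 11 of them were shared with the 16. With all cells kept, 2 of 11 alpha-cell function genes tested were higher, Ttr and Slc38a5, and none lower. At unadjusted p below 0.05, 7 of the 11 were higher and 1 lower. Ttr stood at 2597 and 2253 CPM in glucagon cells against 699 and 683 CPM in ghrelin/Pyy cells (log2 fold change 1.84 ± 0.16, edgeR adjusted p = 5.74e-09). Slc38a5 stood at 3033 and 2561 CPM against 943 and 1614 CPM (1.11 ± 0.21), with an adjusted p of 0.0751 once the Sst cells were left out. Lmtk3, at 33.7 and 9.67 CPM in ghrelin/Pyy cells, was higher in glucagon cells by 4.56 ± 0.47, and Sdhc, at 118 and 99.9 CPM, by 3.30 ± 0.29. Tmsb4x, thymosin beta 4, which binds actin, stood at 1009 and 1550 CPM against 488 and 374 CPM (1.64 ± 0.22). Ppy, at 884 and 851 CPM in ghrelin/Pyy cells, had a log2 fold change of -1.02 ± 0.27 and did not pass (edgeR adjusted p = 0.182).

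Genes lower in glucagon than in ghrelin/Pyy cells began with Cdkn1a, the cell-cycle inhibitor p21. It stood at 150 and 148 CPM in glucagon cells against 1322 and 889 CPM (-2.82 ± 0.25, edgeR adjusted p = 5.74e-09), and its exons overlap another gene on the opposite strand. Mboat4, the enzyme that acylates ghrelin, whose exons overlap a gene on the opposite strand, stood at 54.5 and 55.0 CPM against 236 and 206 CPM (-1.96 ± 0.41, edgeR adjusted p = 0.0230), a gene DESeq2 did not call (adjusted p = 0.130). The ghrelin/Pyy cells were chosen by Ghrl or Pyy, so genes that follow either are not independent of that choice. Fev, a serotonergic transcription factor also expressed in endocrine precursors, stood at 109 and 82.4 CPM against 286 and 293 CPM (-1.60 ± 0.32). Cd24a, a surface glycoprotein, stood at 75.0 and 16.5 CPM against 312 and 396 CPM (-3.09 ± 0.42). Sst and Hhex, the factor of delta cells, were also called. Without the Sst cells their log2 fold changes were 0.16 ± 0.47 and -2.22 ± 0.77, and neither passed (edgeR adjusted p = 0.975 and 0.416).

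Mrc1, the mannose receptor of macrophages, was higher in glucagon cells than in ghrelin/Pyy cells, at 34.1 and 159 CPM against 0 and 19.3 CPM (3.19 ± 0.58, edgeR adjusted p = 0.00611). It was the 1 called gene of 8 macrophage genes tested, all 8 of which had positive fold changes. The summed level of the 13 macrophage genes was 102 and 583 CPM in glucagon cells of libraries 1 and 2, against 75.8 and 161 CPM in ghrelin/Pyy cells, 120 and 219 CPM in insulin cells and 82.6 and 81.0 CPM in Chgb precursors. In library 1, Csf1r, C1qb, C1qc and Tyrobp had no UMI in glucagon cells, and 25 of the 37 cells had no macrophage UMI at all. In library 2, 24 of the 29 Mrc1 UMIs lay in the 6 glucagon cells with 5 or more macrophage UMIs. Without those 6 cells the log2 fold change was 1.62 ± 0.83 (edgeR adjusted p = 0.724), while 14 of the 16 genes were among the 15 then called. Against Chgb precursors, Mrc1 was called too (4.33 ± 0.66) and had a log2 fold change of 2.77 and an edgeR adjusted p of 0.192 without those cells. The part of macrophage RNA in this result was otherwise not tested.

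Against Chgb precursors, 134 of 8658 genes (1.55%) differed, 70 higher (0.809%) and 64 lower (0.739%) in glucagon cells. Precursors were chosen by Chgb, which was therefore not tested. Of 11 alpha-cell function genes 8 were higher. Tmem27 stood at 797 and 1264 CPM in glucagon cells against 73.9 and 111 CPM in precursors (3.48 ± 0.26, edgeR adjusted p = 1.29e-10). Rbp4, the plasma retinol carrier, stood at 1772 and 2286 CPM against 457 and 567 CPM (2.01 ± 0.15). Scg2 stood at 164 and 264 CPM against 34.8 and 42.0 CPM (2.51 ± 0.40), and Dpp4, a peptidase that trims glucagon-like peptides, at 143 and 231 CPM against 43.5 and 42.0 CPM (2.18 ± 0.40). Iapp was higher in each library, at 470 and 2341 CPM against 117 and 480 CPM (2.18 ± 0.34), with an adjusted p of 0.166 in DESeq2. Hoxd3 was at 13.0 and 8.99 CPM in precursors (5.22 ± 0.43) and Lmtk3 at 13.0 and 14.99 CPM (4.93 ± 0.45).

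Among factors shared by endocrine cells, 4 of 18 tested were lower in glucagon cells than in precursors and none higher. Fev stood at 109 and 82.4 CPM in glucagon cells against 883 and 857 CPM in precursors (-3.17 ± 0.28, edgeR adjusted p = 3.30e-09). Neurod1, a direct target of Neurog3, stood at 232 and 253 CPM against 435 and 672 CPM (-1.16 ± 0.25), Nkx2-2 at 382 and 357 CPM against 770 and 753 CPM (-1.01 ± 0.21), and Myt1 at 6.82 and 44.0 CPM against 100 and 210 CPM (-2.51 ± 0.51). Pax4 was lower by 3.63 ± 0.69. The beta-lineage factors Nkx6-1, Pdx1 and Mnx1 were lower too, with Nkx6-1 at 81.8 and 98.9 CPM against 583 and 510 CPM (-2.56 ± 0.31). Chga stood at 300 and 572 CPM against 1078 and 1598 CPM (-1.59 ± 0.19). Spp1 was higher in glucagon cells than in precursors, at 266 and 87.9 CPM against 47.8 and 33.0 CPM (2.14 ± 0.44). Of the 39 and 16 Spp1 UMIs in glucagon cells of libraries 1 and 2, 31 and 4 lay in the cells with 3 or 4 Gcg UMIs.

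All genes called in the 4 comparisons had the same sign in both libraries, which a call drawn from both libraries itself makes likely. The p-values rest on only these 2 libraries, which may be technical replicates. Their spread was estimated largely across genes and, for the endocrine groups, over all 5 groups, not from the compared difference alone. At the depth of these sums the test recovered, in simulated data with known folds, 12.5% of 2-fold and 51.6% of 4-fold changes against all other barcodes and 20% and 54.7% against ghrelin/Pyy cells, so a gene without a call may still differ.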

How the data were processed

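Single pancreatic cells of 2 wild-type libraries at E14.5 were measured by inDrop capture and CEL-Seq amplification, per the labels' protocols. The authors deposited raw UMI counts per gene and barcode, 25507 genes in each library, and the submitters' processing notes name GRCm38. For the aligner, the counter, the annotation and strand the entry is "not given in the sources used here".

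Cells and groups were set by UMI thresholds (1000 UMIs, 20% mitochondrial). Passing barcodes held 1891106 and 3389089 UMIs in libraries 1 and 2. Counts were summed per library and group. The test was quasi-likelihood F in edgeR 4.0.16 under R 4.3.3, with library as a block, scaling by TMM, its default count filter and Benjamini-Hochberg adjustment at 0.05. Glucagon cells against all others used 4 sums (1 residual degree of freedom, spread shared over genes), and the endocrine groups used 10 sums of 5 groups (4 residual degrees of freedom). Library served as the block because both groups of a comparison come from the same library. Genes that define the groups compared were not tested. SE was derived from the fold change and its F statistic. Levels are plain CPM of the sums. Scrublet in scanpy 1.11.5 called doublets, which were kept. Shares have exact binomial 95% intervals, and thinning drew 1000 UMIs per cell without replacement.

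The members, the 26 gene lists and the tests were chosen with earlier results of these data known. The 79 named genes were every tested alpha-lineage factor and other hormone, then 12 further list genes taken in order of adjusted p with no list giving over 2, and 6 rises plus 6 falls of greatest size outside the lists (50 CPM or more in the higher group, no Gm or Rik symbol). Further list members serve as examples and were picked with their values in view. GENCODE M21 gave positions and held 24334 of the 25507 symbols (95.4%). DESeq2 1.42.0, other scalings, filters, Gcg thresholds and cell exclusions were run as alternatives, those without macrophage-marker or Sst-rich cells being chosen after seeing the data. Figures used matplotlib 3.10.9. Results for some genes are not reported here.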

Additional observations from a re-analysis of the deposited data

How the results depend on the processing

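Counts of called genes that moved by over 1.5 times were these. Against all other barcodes, 203 genes became 393 with no filter on low counts, 105 with DESeq2, 452 with a Gcg minimum of 5 UMIs and 375 with Gcg at 0.1% of UMIs or more, and 201 of the 203 were among the 452. With no filter the share of calls higher in glucagon cells was 27.0% against 51.2%, and all genes had a median log2 fold change of -0.31. DESeq2 called 63.8% of its genes higher against all other barcodes and 64.6% against Chgb precursors, where the edgeR split was 52.2%, and 54.5% against ghrelin/Pyy cells, where it was 43.8%. DESeq2 called 151 genes in place of 259 against insulin cells and 79 in place of 134 against Chgb precursors. Against ghrelin/Pyy cells, 16 genes became 34 with no filter. Without the replicate block the 4 counts were 163, 178, 13 and 90, each within 1.5 times of the count with the library block, and 7 single-gene calls were lost (among them Serpina6 against all other barcodes, Isl1 and Iapp against insulin cells, Hhex and Mrc1 against ghrelin/Pyy cells, and Mrc1 against Chgb precursors). The cause of these changes was not tested.

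Of 141 results for single genes, 112 kept their direction and their side of the threshold in every setting with a test. The 1 reversal was Sst against ghrelin/Pyy cells, which was -5.00 on the log2 scale with all cells and 0.16 without the cells rich in Sst. Leaving out either library leaves 1 sum per group and no residual degrees of freedom in the comparison with all other barcodes, so single-library fold changes were computed as values without a test. All called genes kept their sign, but the calls had used both libraries, so this is no separate check.

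Small classes and genes with a few UMIs per library limit precision. Whether the libraries are separate animals is not stated.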
